A study of Mus musculus with 12 samples.

Results

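Pyruvate dehydrogenase kinases and the genes around them that set the fate of pyruvate were followed in sorted intestinal stem cells (ISCs). The members are 10 genes named by symbol, out of 47729 in the count table: the kinases *Pdk1*, *Pdk2*, *Pdk3* and *Pdk4*, the phosphatases *Pdp1* and *Pdp2*, the enzyme subunit *Pdha1*, the pyruvate carrier subunits *Mpc1* and *Mpc2*, and *Ldha*. They were selected on measured values, namely the higher RNA level of *Pdk4* in stressed and CORT-treated mice than in their controls in these same libraries, and on their known role. Their values in the treated groups and their controls are therefore a description, and carry no p-value here. All 10 members passed the filter on low counts in every comparison.

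All groups were *Lgr5-EGFP-IRES-creERT2* mice, 8 to 10 weeks old and of both sexes (the sex of each library is not given), and the cells were sorted from the crypts of their small intestine as the fraction with the brightest green fluorescence. In these knock-in mice the *Lgr5* locus drives both EGFP and a Cre recombinase, in a mosaic of crypts, and every group carries the allele. There were 4 groups of 3 libraries. Ctrl mice were not restrained and, per the restraint protocol, went without food and water for as long as the stressed mice. Stress mice (called CRS in the labels, an abbreviation used for chronic restraint) were held in a tube for 3 h on 1 day. Vehicle mice received an intraperitoneal injection of 20% cyclodextrin, and CORT mice received 5 mg/kg corticosterone, the main glucocorticoid of rodents, in that solution, both treatments lasting 1 day. Whether the injected mice were also kept from food is not stated in the sources used here. The stress libraries bear the numbers 1+2, 3 and 4+5+6, so the joined ones appear to be pools. The labels do not tie the other libraries to single animals, so the tests measure the spread between libraries. The study asked which genes of ISCs respond to a restraint session and to the injected hormone.

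Pyruvate, the end product of glycolysis, has several fates. It can be imported into mitochondria by a carrier made of MPC1 and MPC2, and turned into acetyl-CoA by the pyruvate dehydrogenase complex (PDC), or be reduced to lactate in the cytosol by lactate dehydrogenase. Pyruvate dehydrogenase kinases phosphorylate the E1 alpha subunit of PDC, encoded by *Pdha1*, and switch the complex off, and pyruvate dehydrogenase phosphatases switch it on again. PDK4 is known from muscle, liver and heart as the isoenzyme induced by fasting and by glucocorticoids. In ISCs, mitochondrial pyruvate use has been linked to the balance between self-renewal and differentiation. RNA levels do not measure the phosphorylation or activity of the complex.

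Levels are given as CPM (counts scaled to a common library size with TMM factors over the 12 libraries) for comparisons of 1 gene between libraries, and as FPKM (scaled to gene length as well) where genes are compared with each other. The 9 libraries of Ctrl, stress and vehicle had 15934907 to 31280267 total counts and the CORT libraries 29426183 to 69533214, so that low genes carry less counting error in CORT. A count stands for 75 covered bases, and the 12 counts that 3 read pairs can make, which 0 counts allow, amount to between 0.173 and 0.753 CPM by library (counting error only, as reads carry no molecular identifiers). The 6 ISC markers had a median of 441 to 604 CPM, and *Olfm4* was at 6844 to 10288 CPM in every library. Markers of other cells were lower, with medians of 6.48 to 283 CPM for enterocytes, 15.4 to 37.9 for Paneth cells, 30.1 to 127 for goblet cells, 0.547 to 3.42 for enteroendocrine cells and 0.334 to 2.03 for tuft cells. Blood cell markers had a median of at most 0.115 CPM and markers of stroma and endothelium a median of 0, with up to 6 of the 6 genes of either list at 0.

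In Ctrl ISCs *Pdk4* was the lowest of the 10 members and *Ldha* the highest. Mean FPKM was 340.3 ± 18.3 for *Ldha* (SD, n = 3), 166 ± 5.19 for *Pdha1*, 60.1 ± 3.92 for *Mpc2*, 45.6 ± 5.26 for *Mpc1* and 35.1 ± 0.141 for *Pdk2*. It was 15.5 ± 1.39 for *Pdk1*, 11.3 ± 1.01 for *Pdk3*, 3.70 ± 0.892 for *Pdp2*, 2.08 ± 0.677 for *Pdp1* and 0.363 ± 0.110 for *Pdk4*. Neighbours in this order did not overlap between libraries, except *Pdp2* and *Pdp1*. Untreated ISCs thus held mostly *Pdk2* among the kinases, and little RNA of either phosphatase. *Pdk4* ranked 13588th among all genes by its mean FPKM in Ctrl, against 10312th in vehicle, 3929th in stress and 1898th in CORT.

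*Pdk4* (ENSMUSG00000019577, chr6:5483351-5496309, minus strand, mm10) was higher in stressed and CORT-treated ISCs than in their controls, in every library. It was at 0.931, 1.84 and 1.58 CPM in Ctrl 1, 2 and 3, and at 90.3, 38.0 and 97.4 CPM in stress 1+2, 3 and 4+5+6. It was at 9.57, 9.14 and 8.95 CPM in vehicle 3, 5 and 6, and at 209, 188 and 83.8 CPM in CORT 2, 4 and 5. By level the groups ordered as Ctrl, vehicle, stress and CORT, with no overlap between neighbours except stress and CORT, where CORT 5 lay below both pooled stress libraries. In the bulk RNA of a sorted population, more cells with the transcript and more transcript per cell cannot be told apart.

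**Figure D1:**
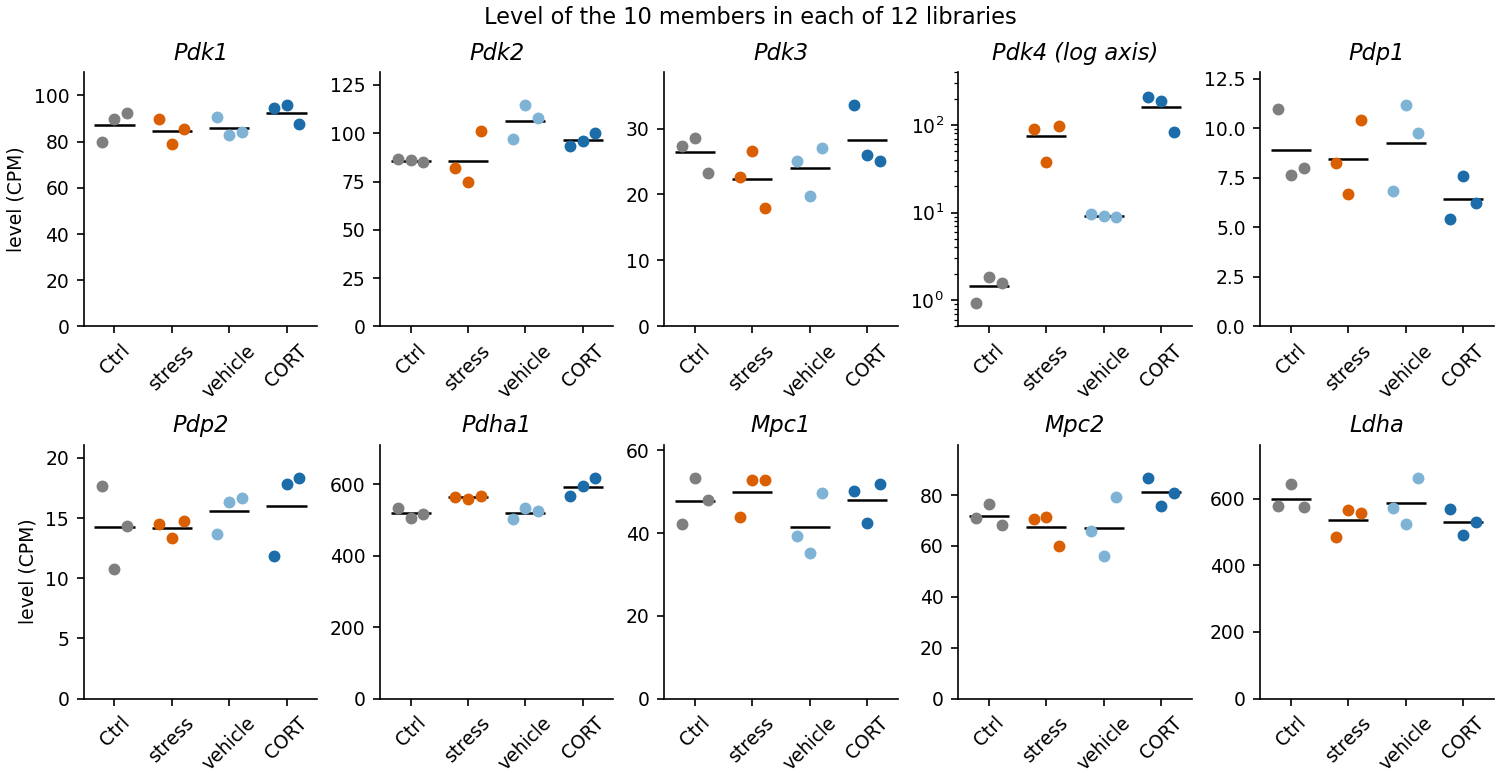
Level in CPM of each member in every library (points) with the group mean (bar), for Ctrl, stress, vehicle and CORT (3 libraries each), with a logarithmic axis for *Pdk4* and axes from 0 for the others. *Pdk4* spans 0.931 to 209 CPM. In the pairs compared, groups of the other members overlap at least in part, except *Pdha1* (stress and CORT), *Ldha* (stress) and *Pdk2* (vehicle vs. Ctrl).

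In stress vs. Ctrl, *Pdk4* had a log2 fold change of 5.70 ± 0.41 (SE, 95% confidence interval 4.80 to 6.60), or 51.9-fold. Leaving out each library in turn gave log2 fold changes from 5.46 to 6.02. The denominator is small, since *Pdk4* had 16, 31 and 26 counts in the Ctrl libraries, just above the 12 counts that 0 allows, so the size of the fold is less certain than its direction. By fold change *Pdk4* stood 9th of the 13722 genes tested.

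Enterocyte markers moved with *Pdk4* among the stress libraries. Their median was 121, 51.7 and 283 CPM in stress 1+2, 3 and 4+5+6, against 16.6 to 24.0 CPM in Ctrl, and 5 of the 6 markers (*Alpi*, *Sis*, *Fabp1*, *Apoa1* and *Apoa4*) passed the test as higher in stress. Stress 3 was the lowest stress library for both *Pdk4* and these markers, and stress 4+5+6 the highest for both. With stress 3 alone against the 3 Ctrl libraries, a comparison added after these values had been seen and in which the lone library is assumed to vary like the Ctrl libraries, *Pdk4* was still 26.1-fold higher (log2 fold change 4.71 ± 0.31, SE), while 4 of the 6 enterocyte markers passed the test there. The part of enterocyte RNA in the level of *Pdk4* in stress was not tested. Of the other lists, 2 of 6 goblet cell markers (*Clca1* and *Zg16*) and 1 of 6 Paneth cell markers (*Mmp7*) passed as higher in stress, and 1 of 6 ISC markers (*Ascl2*) as lower.

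**Figure D2:**
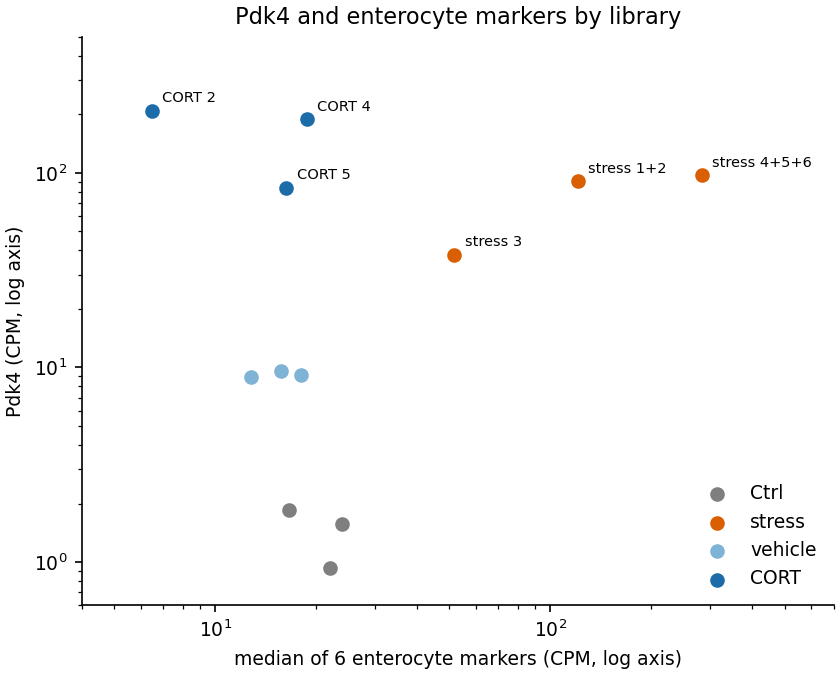
*Pdk4* against the median of 6 enterocyte markers in each of the 12 libraries (1 point a library, both in CPM on logarithmic axes, coloured by group). Stress libraries rise along both axes, whereas the CORT libraries sit at 83.8 to 209 CPM of *Pdk4* with enterocyte markers at 6.48 to 18.8 CPM, near those of vehicle.

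In CORT vs. vehicle, *Pdk4* had a log2 fold change of 4.10 ± 0.31 (SE, 95% confidence interval 3.39 to 4.80), or 17.1-fold. Leaving out each library gave 3.87 to 4.40. Here the median of the enterocyte markers was 6.48, 18.8 and 16.3 CPM in CORT 2, 4 and 5, against 12.8 to 18.0 CPM in vehicle, so *Pdk4* was higher in CORT libraries whose enterocyte markers lay below, within or just above the range of vehicle. *Fabp2* was the 1 of 6 enterocyte markers to pass as higher in CORT, and 3 of 6 ISC markers (*Lgr5*, *Ascl2* and *Smoc2*) and 4 of 6 Paneth cell markers passed as lower. Of the tuft cell markers *Pou2f3* passed as lower (1 of 3 tested), and of the stromal and endothelial markers *Pecam1* passed as higher, with a log2 fold change of 2.12, as the 1 that could be tested. The part of these cells in the level of *Pdk4* was not tested. Among the CORT libraries *Pdk4* was lowest in the shallowest, CORT 5, with 29426183 counts. Vehicle 6 was slightly deeper, with 31280267 counts, and had 8.95 CPM of *Pdk4* against 83.8 CPM in CORT 5. The part of depth in the level of *Pdk4* was not tested. By fold change *Pdk4* stood 27th of the 14656 genes tested.

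Between the control groups *Pdk4* also had separate levels. It was 6.33-fold higher in vehicle than in Ctrl (log2 fold change 2.66 ± 0.30, SE, 95% confidence interval 2.00 to 3.32), with 162, 158 and 274 counts in the vehicle libraries. Both groups are also the controls of the pairs on which *Pdk4* was picked, so these values too are a description, with no test. The injection, the handling of food and any batch cannot be told apart here. The log2 fold change was between 2.42 and 2.87 without each library in turn, and 1.35 by limma on log2(FPKM + 1). The enterocyte marker *Fabp1*, at 20.6, 56.8 and 30.1 CPM in vehicle 3, 5 and 6 against 8.57 to 10.8 CPM in Ctrl, passed the test as higher in vehicle (1 of 6), as did the Paneth cell marker *Mmp7* (1 of 6), while the median of the enterocyte markers was 12.8 to 18.0 CPM in vehicle and 16.6 to 24.0 CPM in Ctrl. The part of these cells in the level of *Pdk4* was not tested. The stress effect exceeded the CORT effect of *Pdk4* by 1.60 ± 0.60 on the log2 scale (SE, 95% confidence interval 0.30 to 2.90), and this, too, is a description. On log2(FPKM + 1) with limma, where the low Ctrl level weighs less, it was 0.37. The larger fold in stress thus went with a lower Ctrl level, not with a higher treated level, since CORT reached 160.2 ± 67.0 CPM and stress 75.3 ± 32.5 CPM (SD, n = 3).

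The other kinases did not follow *Pdk4*. *Pdk2* (chr11:95026258-95041354), the most abundant kinase RNA in Ctrl, was at 86.6, 86.3 and 84.9 CPM in Ctrl and at 81.8, 74.7 and 101 CPM in stress 1+2, 3 and 4+5+6. It was at 96.9, 114 and 108 CPM in vehicle 3, 5 and 6 and at 93.4, 96.3 and 100.1 CPM in CORT 2, 4 and 5. The stress libraries lay on both sides of Ctrl and the CORT libraries overlapped with vehicle, with log2 fold changes of 0.00 ± 0.11 and -0.16 ± 0.08 (SE). All vehicle libraries lay above all Ctrl libraries, with a log2 fold change of 0.31 ± 0.08 that did not pass the test. *Pdk2* overlaps with the antisense gene *Gm11513*, and whether counts were assigned by strand is not stated.

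*Pdk1* (chr2:71873224-71903858), a kinase known as a target of hypoxia-inducible factor, was at 79.8 to 92.4 CPM in Ctrl and 78.9 to 89.9 CPM in stress, and at 83.0 to 90.6 CPM in vehicle and 87.7 to 95.7 CPM in CORT. Its log2 fold change was -0.04 ± 0.09 in stress and 0.09 ± 0.07 in CORT. *Pdk3* (chrX:93764607-93832201) was lower, at 23.3 to 28.6 CPM in Ctrl and 18.0 to 26.5 CPM in stress, and at 19.7 to 27.1 CPM in vehicle and 25.1 to 33.5 CPM in CORT. Its log2 fold change was -0.24 ± 0.17 in stress and 0.21 ± 0.16 in CORT. Neither gene separated the groups of any pair.

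Because levels of different kinases can be compared per length, the share of each in the summed FPKM of *Pdk1* to *Pdk4* was taken in every library. *Pdk4* made up 0.580 ± 0.168% of the kinase RNA in Ctrl and 3.42 ± 0.320% in vehicle, against 23.9 ± 7.64% in stress and 36.6 ± 10.8% in CORT (SD, n = 3). In single libraries its share was 28.4, 15.05 and 28.2% in stress 1+2, 3 and 4+5+6, and 43.9, 41.7 and 24.2% in CORT 2, 4 and 5. *Pdk2* held the largest share in all libraries except CORT 2 and CORT 4, where *Pdk4* did. The share of *Pdk2* was 56.4 ± 1.17% in Ctrl against 44.1 ± 3.76% in stress, and 60.3 ± 3.51% in vehicle against 36.8 ± 7.99% in CORT, but the summed FPKM of the kinases other than *Pdk4* was 62.0 ± 0.931, 59.7 ± 6.21, 69.9 ± 2.205 and 64.9 ± 2.44 in Ctrl, stress, vehicle and CORT. The total of all 4 kinases was 62.4 ± 1.04 FPKM in Ctrl against 79.4 ± 14.6 FPKM in stress, and 72.4 ± 2.09 FPKM in vehicle against 104.2 ± 17.9 FPKM in CORT, and it was nearly the same in stress 3 (63.5) as in the highest Ctrl library (63.3).

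**Figure D3:**
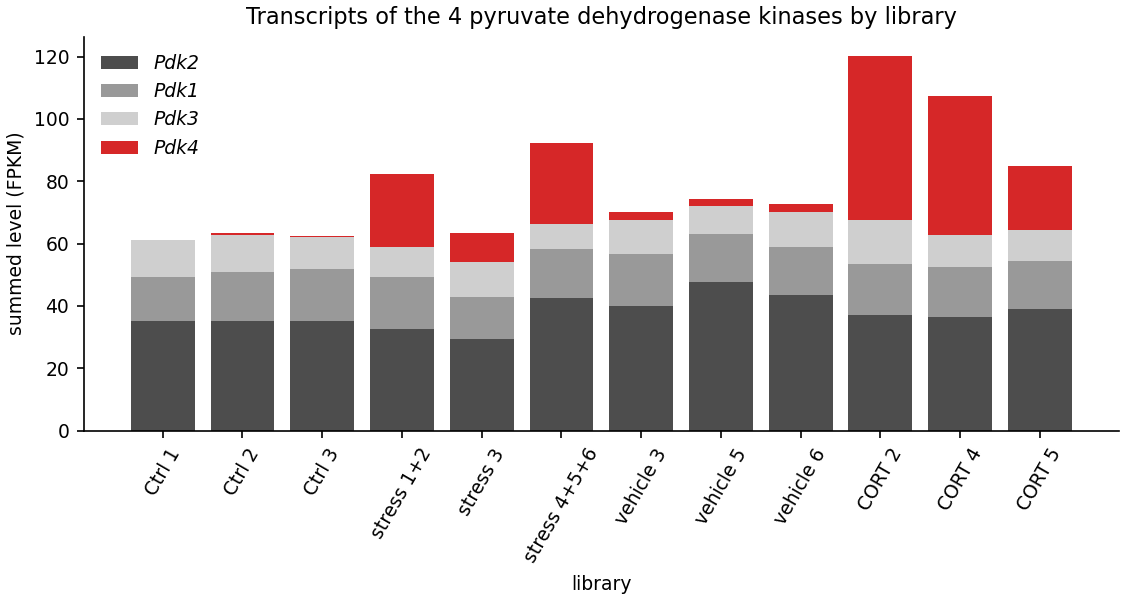
Summed level (FPKM) of the 4 pyruvate dehydrogenase kinases in each of the 12 libraries, split by gene. The *Pdk4* part is thin in Ctrl and vehicle and reaches 43.9% of the bar in CORT 2, while the part of the other kinases lies between 53.9 and 71.9 FPKM.

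The phosphatases, which act against the kinases, had low RNA levels throughout. *Pdp1* (chr4:11958184-11966452), the calcium-sensitive form, was at 10.99, 7.67 and 7.997 CPM in Ctrl and 8.27, 6.69 and 10.4 CPM in stress. It was at 6.85, 11.2 and 9.79 CPM in vehicle 3, 5 and 6 and at 5.44, 7.60 and 6.22 CPM in CORT 2, 4 and 5, where CORT 4 overlapped with vehicle 3. Its log2 fold change in CORT, -0.55 ± 0.23 (SE, 95% confidence interval -1.06 to -0.04), was the lowest of the members and did not pass the test across all genes. *Pdp2* (chr8:104591468-104596836) was at 10.8 to 17.6 CPM in Ctrl and 13.3 to 14.8 CPM in stress, and at 13.7 to 16.7 CPM in vehicle and 11.8 to 18.4 CPM in CORT, with log2 fold changes of -0.00 ± 0.20 in stress and 0.01 ± 0.19 in CORT.

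*Pdha1* (chrX:160122209-160138413), whose protein is the substrate of the kinases, was slightly higher in both treated groups with no overlap. It was at 533, 506 and 518 CPM in Ctrl and 566, 560 and 568 CPM in stress 1+2, 3 and 4+5+6. It was at 504, 535 and 525 CPM in vehicle and 567, 596 and 619 CPM in CORT 2, 4 and 5. The log2 fold changes were 0.12 ± 0.07 and 0.17 ± 0.08 and neither passed the test. Of the 75-base stretches in its transcripts, 10.6% also occur in the oppositely oriented neighbour *Map3k15*, so counts of the pair may be shared.

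The carrier subunits and lactate dehydrogenase A showed differences of the same small size. *Mpc1* (chr17:8282904-8297661) was at 42.2 to 53.4 CPM in Ctrl and 43.8 to 53.0 CPM in stress, and at 35.1 to 49.7 CPM in vehicle and 42.4 to 51.8 CPM in CORT, with 21.3% of its 75-base stretches shared with the pseudogene *Mpc1-ps* or with *4930506C21Rik*. *Mpc2* (chr1:165460637-165481214) was at 68.3 to 76.3 CPM in Ctrl and 60.1 to 71.5 CPM in stress, and at 56.2 to 79.4 CPM in vehicle and 75.7 to 86.8 CPM in CORT. The log2 fold changes of *Mpc1* and *Mpc2* were 0.06 ± 0.12 and -0.09 ± 0.10 in stress and 0.19 ± 0.13 and 0.25 ± 0.12 in CORT. *Ldha* (chr7:46841475-46855627) was at 576, 642 and 574 CPM in Ctrl and 484, 565 and 557 CPM in stress 1+2, 3 and 4+5+6, so that all stress libraries lay below Ctrl, with a log2 fold change of -0.15 ± 0.09. It was at 571, 523 and 663 CPM in vehicle 3, 5 and 6 and 568, 489.7 and 529 CPM in CORT 2, 4 and 5, which overlapped (log2 fold change -0.17 ± 0.10).

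Of the 10 members, 1 lay past an adjusted p of 0.05 (edgeR) in each of the 3 pairs of groups, namely *Pdk4*, the gene the members were selected on, so nothing is read from this count. Across all genes tested, 1.3% passed as higher and 0.59% as lower in stress, 3.64% and 4.5% in CORT, and 0.447% and 0.352% in vehicle vs. Ctrl. The difference between the stress and CORT effects was called for 0 members by edgeR and 0 by DESeq2. In each direction edgeR called it for 0.194% of all genes. Apart from *Pdk4*, 1 member (*Mpc2*) had an unadjusted p below 0.05 for this difference. In the pairs themselves it was 0 in stress, 1 in CORT (*Pdp1*) and 1 in vehicle vs. Ctrl (*Pdk2*). The share of all genes at this threshold was not taken, so nothing is read from these counts. Groups did not overlap for 3 of 10 members in stress (*Pdk4* and *Pdha1* higher, *Ldha* lower), 2 in CORT (*Pdk4* and *Pdha1*) and 2 in vehicle vs. Ctrl (*Pdk4* and *Pdk2*), while 20.4%, 28.7% and 16.2% of all genes tested did not overlap in these pairs. The 9 members other than *Pdk4* had log2 fold changes between -0.24 and 0.12 in stress and between -0.55 and 0.25 in CORT, and their 95% confidence intervals lay within -0.63 to 0.49 and within -1.06 to 0.57. The widest intervals were those of *Pdp1*, a gene with a low level, and they were narrower for abundant genes, such as -0.04 to 0.29 for *Pdha1* in stress and -0.08 to 0.25 for *Pdk1* in CORT.

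**Figure D4:**
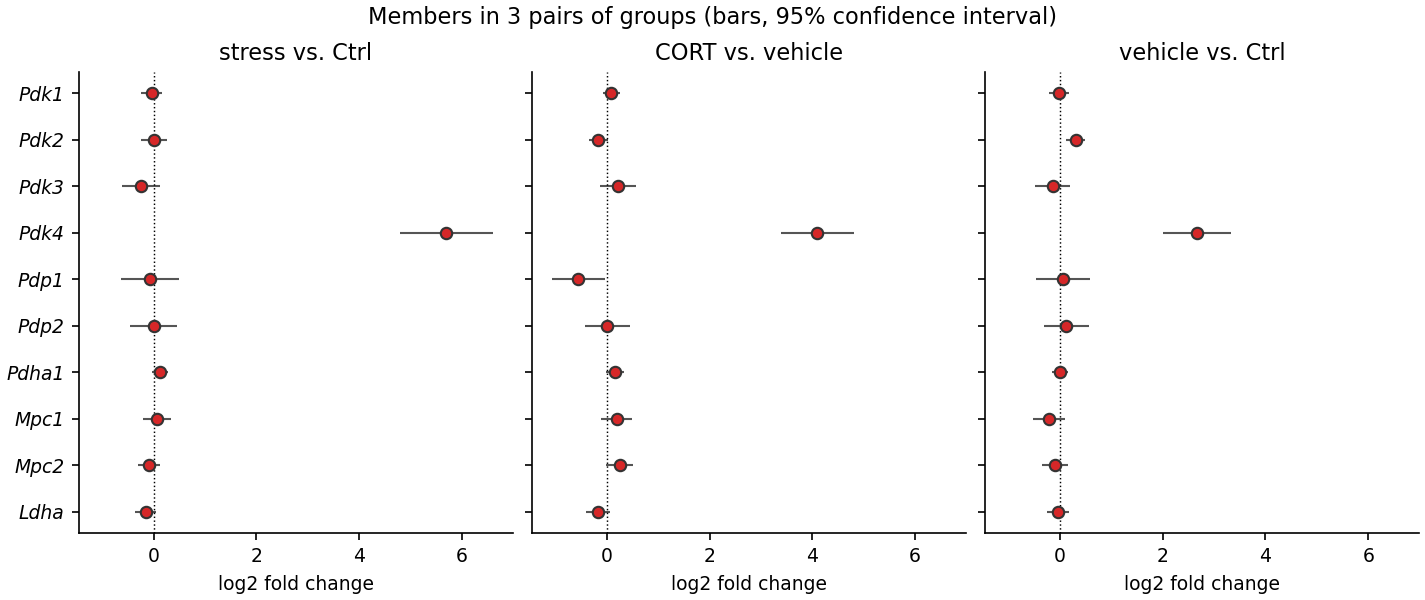
Log2 fold change of each member (point) with its 95% confidence interval (bar) in stress vs. Ctrl, CORT vs. vehicle and vehicle vs. Ctrl, from the edgeR fits of 3 against 3 libraries. *Pdk4*, on which the members were selected, lies at 5.70, 4.10 and 2.66, and the other members lie between -0.55 and 0.31.

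The bases just upstream of the most responsive and of the most abundant kinase gene are shown from RefSeq (GRCm38.p6), 5′ to 3′ on the minus strand, to give the promoter-proximal sequence at which the genes start. The *Pdk4* stretch covers 219 bases at chr6:5496310-5496528 (the 31 bases nearest the RefSeq start lie inside the gene of GENCODE and are not shown), and the *Pdk2* stretch 250 bases at chr11:95041372-95041621. Capitals mark a match to ACGTG, the core bound by hypoxia-inducible factors.
Pdk4: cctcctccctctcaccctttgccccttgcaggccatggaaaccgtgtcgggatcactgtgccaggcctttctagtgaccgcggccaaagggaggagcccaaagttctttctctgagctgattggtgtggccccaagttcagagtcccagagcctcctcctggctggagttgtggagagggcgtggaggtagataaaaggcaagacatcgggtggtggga
Pdk2: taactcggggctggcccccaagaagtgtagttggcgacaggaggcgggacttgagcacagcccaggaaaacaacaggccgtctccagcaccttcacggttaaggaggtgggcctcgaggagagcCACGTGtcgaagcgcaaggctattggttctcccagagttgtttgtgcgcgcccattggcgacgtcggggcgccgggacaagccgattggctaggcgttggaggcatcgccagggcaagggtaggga

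Windows of 250 bases upstream of a RefSeq start were at hand for 9 of the 10 members (13 windows). They were searched on both strands for ACGTG, for TGTTCT (a glucocorticoid receptor half-site), for GTAAACA (bound by FoxO factors) and for AGGTCA (a half-site of other nuclear receptors). The *Pdk4* window held none of the 4, and the first *Pdk2* window held ACGTG on both strands in 1 palindrome. ACGTG was found in 4 of the 13 windows, those of *Pdk2*, *Pdk3*, *Pdp2* and *Ldha*, the last with 5 matches that partly overlap. TGTTCT and AGGTCA were found in 1 window each (*Pdk1* and *Mpc1*), and GTAAACA in 0. Among all 32851 such windows, 16.6% held ACGTG, 16.1% TGTTCT, 14.0% AGGTCA and 3.17% GTAAACA. A match is a run of letters and not a bound site, and sites farther from the start were not searched.

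Around the members, 70 other genes in 7 lists were examined, of which 69 could be tested (*Mpc1l* could not). In stress vs. Ctrl 5 of the 69 passed the test of edgeR with Benjamini-Hochberg adjustment, 4 higher and 1 lower, and in CORT vs. vehicle 15 did, 7 higher and 8 lower. That is 7.25% and 21.7% of the list, against 1.3% of all genes tested called higher and 0.59% called lower in stress, and 3.64% and 4.5% in CORT. The median log2 fold change of the 69 was 0.04 in stress and 0.09 in CORT, against -0.00 and 0.01 over all genes tested. Some of these genes were known from earlier results of these data to differ, so the counts are not independent evidence.

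Among the remaining PDC subunits and regulators (*Pdhb*, *Dlat*, *Dld*, *Pdhx* and *Pdpr*), 0 of 5 passed in stress, by edgeR or DESeq2 or at an unadjusted p below 0.05. In CORT 1 of 5 passed by edgeR and 1 by DESeq2, and 2 had an unadjusted p below 0.05 (the share of all genes was not taken). *Pdhx* did not pass in CORT (log2 fold change 0.32 ± 0.10, adjusted p = 0.0761, edgeR). *Dlat*, the E2 core subunit, was at 106, 110.0 and 98.2 CPM in vehicle and 145, 136 and 147 CPM in CORT (log2 fold change 0.42 ± 0.08, adjusted p = 0.0114, edgeR), and the call was lost without CORT 5 (adjusted p = 0.051). Of the 3 genes that attach lipoate to the E2 subunit, *Lipt2*, the octanoyltransferase of the first step, fell in both pairs. It was at 55.8, 53.6 and 52.6 CPM in Ctrl and 27.0, 27.0 and 25.1 CPM in stress (log2 fold change -1.03 ± 0.10, adjusted p = 0.000906, edgeR), and the call held whichever library was left out and with stress 3 alone (adjusted p = 0.0168). In CORT it was at 23.8, 25.5 and 35.5 CPM against 48.3, 38.1 and 58.4 CPM in vehicle 3, 5 and 6 (log2 fold change -0.80 ± 0.19, adjusted p = 0.0313, edgeR), and the call was lost without vehicle 3, vehicle 6, CORT 2 or CORT 4 (adjusted p = 0.0677 to 0.128). *Lias* and *Lipt1* did not pass in either pair.

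Of 20 glycolysis genes, 1 passed in stress and 4 in CORT. *Pklr*, the pyruvate kinase of liver and gut epithelium, was at 64.2, 67.5 and 60.8 CPM in Ctrl and 95.8, 83.4 and 98.5 CPM in stress (log2 fold change 0.53 ± 0.10, adjusted p = 0.0232, edgeR). Its call rested on all libraries but stress 3, with adjusted p = 0.0833 to 0.136 when any of the others was left out. With stress 3 alone against Ctrl, *Pklr* was 1.30-fold higher, and its stress libraries lay in the order of the enterocyte markers. The part of enterocyte RNA in its level was not tested. *Hk2*, an inducible hexokinase, rose in CORT, from 110.0, 104 and 114 CPM in vehicle to 204, 188 and 168 CPM (log2 fold change 0.75 ± 0.08, adjusted p = 0.0011, edgeR), and the call held whichever library was left out. *Pfkl* and *Pfkp*, forms of phosphofructokinase, and *Aldoa*, an aldolase, passed as lower in CORT than in vehicle, with log2 fold changes of -0.34 ± 0.09, -0.48 ± 0.10 and -0.28 ± 0.07 (adjusted p = 0.0495, 0.0236 and 0.0458, edgeR). *Pfkl* was at 85.7 to 90.3 CPM in Ctrl, 102 to 116 CPM in vehicle and 80.5 to 95.1 CPM in CORT. *Pfkp* was at 20.9 to 32.0, 32.7 to 38.9 and 25.6 to 26.1 CPM in these groups. For both genes vehicle lay above Ctrl, and CORT overlapped with Ctrl. *Aldoa* was at 252 to 275 CPM in CORT, below Ctrl (279 to 309 CPM) and vehicle (301 to 327 CPM). *Pfkl* passed only when CORT 2 was the library left out and *Pfkp* only when vehicle 5 was, and *Aldoa* passed in none of the 6 fits without a library, with adjusted p up to 0.187, 0.0979 and 0.194.

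Of 6 genes of lactate handling, 0 passed in stress (edgeR, DESeq2 and an unadjusted p below 0.05) and 1 in CORT. *Slc16a1*, which encodes the lactate and pyruvate transporter MCT1, was at 170.3, 169 and 188 CPM in vehicle and 129, 134 and 131 CPM in CORT (log2 fold change -0.44 ± 0.07, adjusted p = 0.00626, edgeR), and the call held whichever library was left out. Of 8 genes of other pyruvate routes that could be tested, 2 passed in stress and 1 in CORT. *Pck1*, the cytosolic enzyme of gluconeogenesis also found in enterocytes, was at 24.3, 2.71 and 37.1 CPM in stress 1+2, 3 and 4+5+6 against 1.69 to 2.00 CPM in Ctrl (log2 fold change 3.50 ± 0.73, adjusted p = 0.0441, edgeR), in the order of the enterocyte markers, and did not pass with stress 3 alone (adjusted p = 0.836). *Pck2*, the mitochondrial form, was at 212, 208 and 194 CPM against 152 to 162 CPM in Ctrl (log2 fold change 0.39 ± 0.08, adjusted p = 0.0382, edgeR). Both calls were lost when any library other than stress 3 was left out (adjusted p up to 0.204 and 0.193). With stress 3 alone against Ctrl, *Pck2* was 1.33-fold higher. *Gpt2*, which exchanges pyruvate and alanine in mitochondria, rose in CORT from 3.25, 2.83 and 4.47 CPM to 7.02, 10.4 and 7.22 CPM (log2 fold change 1.19 ± 0.25, adjusted p = 0.0212, edgeR), and the call was lost without vehicle 3, vehicle 5 or CORT 4 (adjusted p = 0.057 to 0.097). Of 17 genes of the citric acid cycle, which burns the acetyl-CoA made by PDC, 0 passed in any pair by edgeR or by DESeq2, with log2 fold changes between -0.21 and 0.22 in stress and between -0.18 and 0.22 in CORT. At an unadjusted p below 0.05 of edgeR, 4 of them differed in stress, 5 in CORT and 0 between vehicle and Ctrl. The share of all genes at that threshold was not taken, so nothing is read from these counts.

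**Figure D5:**
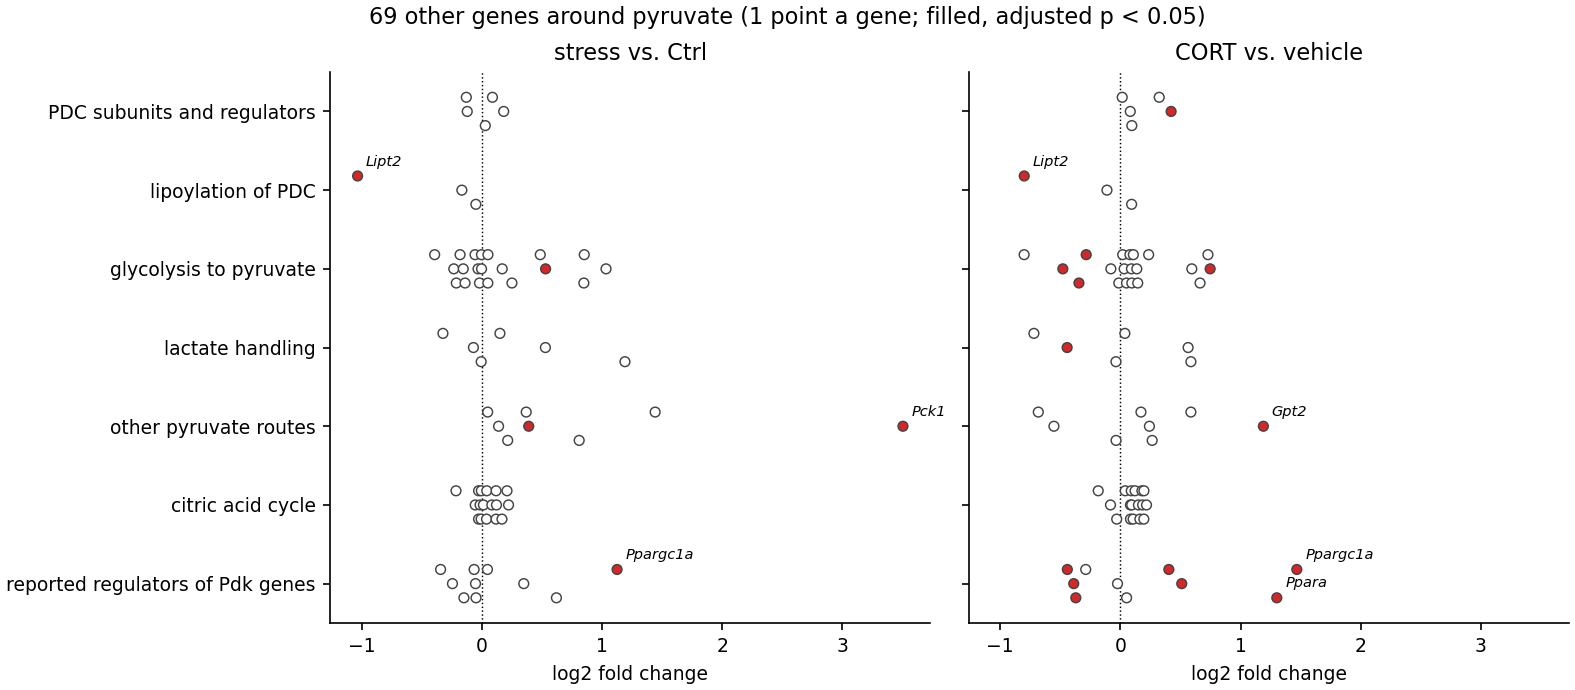
Log2 fold change of the 69 other genes around pyruvate (1 point a gene) by list, in stress vs. Ctrl and in CORT vs. vehicle, on the same scale. Filled points, 5 for stress and 15 for CORT, passed the adjusted p of 0.05, and the citric acid cycle genes lie between -0.21 and 0.22 in both panels.

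The last list holds 10 transcription factors and coactivators reported to act on *Pdk* genes, of which 1 passed in stress (higher, as 1.3% of all genes) and 7 in CORT (4 higher and 3 lower, against 3.64% and 4.5% of all genes). *Ppargc1a*, a coactivator of mitochondrial genes, rose in both, from 14.4, 13.8 and 11.4 CPM in Ctrl to 27.0, 24.2 and 35.1 CPM in stress (log2 fold change 1.13 ± 0.18, adjusted p = 0.0149, edgeR), and from 8.86, 13.5 and 11.03 CPM in vehicle to 32.4, 33.6 and 27.7 CPM in CORT (1.47 ± 0.17, adjusted p = 0.00117). Its stress libraries lay in the order of the enterocyte markers, and the part of enterocyte RNA in its level was not tested. The stress call was lost without Ctrl 1, 2 or 3 (adjusted p = 0.0699, 0.0685 and 0.0827) and with stress 3 alone (adjusted p = 0.16), whereas the CORT call held without each library. *Ppara*, the nuclear receptor of fatty acid use, was at 15.7, 26.6 and 14.95 CPM in vehicle and 46.0, 57.4 and 39.1 CPM in CORT (log2 fold change 1.30 ± 0.23, adjusted p = 0.00916, edgeR). *Foxo3*, a factor held back by insulin signals, and *Esrrg*, an estrogen-related receptor, were also higher in CORT than in vehicle, with log2 fold changes of 0.51 ± 0.09 and 0.40 ± 0.08 (adjusted p = 0.00729 and 0.0139, edgeR). For *Esrrg*, CORT (70.7 to 78.7 CPM) overlapped with Ctrl (68.2 to 85.2 CPM), and vehicle (53.6 to 58.0 CPM) lay below both. Its log2 fold change in vehicle vs. Ctrl was -0.47 ± 0.10 and did not pass the test.

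The glucocorticoid receptor gene *Nr3c1*, the related receptor *Esrra* and the hypoxia factor *Hif1a* fell in CORT. *Nr3c1* was at 157, 165 and 165 CPM in vehicle and 123, 129.8 and 129.5 CPM in CORT (log2 fold change -0.37 ± 0.07, adjusted p = 0.012, edgeR), without overlap. *Hif1a* had a log2 fold change of -0.44 ± 0.07 and *Esrra* of -0.39 ± 0.09 (adjusted p = 0.00607 and 0.0246, edgeR). Calls were lost for *Nr3c1* without CORT 4 (adjusted p = 0.0521), for *Esrrg* without CORT 2 or CORT 5 (0.0557 and 0.0522) and for *Esrra* without vehicle 5, vehicle 6, CORT 2 or CORT 4 (0.0528 to 0.103). In vehicle vs. Ctrl, *Ppard*, another lipid-sensing receptor, was the 1 of the 69 genes to pass, at 143, 159.9 and 160.1 CPM in Ctrl and 104, 102 and 109 CPM in vehicle (log2 fold change -0.56 ± 0.08, adjusted p = 0.0102, edgeR), and the call was lost without Ctrl 2 or Ctrl 3 (adjusted p = 0.0527 in both). For 0 of the 69 genes did the stress and CORT effects differ past the threshold of edgeR. With DESeq2 5 did, and 14 did at an unadjusted p below 0.05 of edgeR. The share of all genes was not taken for DESeq2 or at that unadjusted threshold, so nothing is read from the 5 or the 14.

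Genes whose level followed *Pdk4* most closely over the 12 libraries were ranked by Pearson's r of log2(CPM + 1) among 13626 genes, as a description, since the libraries share their groups and depths. The closest was *Angptl4* (r = 0.985), a secreted inhibitor of lipoprotein lipase, then *E230001N04Rik* (0.963), *B3gnt3* (0.953), a glycosyltransferase, *Zbtb16* (0.949), a zinc finger transcription factor, and *Acot5* (0.948), an acyl-CoA thioesterase. *Angptl4* was at 4.58 to 6.17 CPM in Ctrl, at 13.4 to 22.7 CPM in vehicle, at 73.6 to 96.5 CPM in stress and at 95.9 to 162 CPM in CORT, an order of groups like that of *Pdk4*. Unlike *Pdk4*, it differed little between stress 3 (73.6 CPM) and stress 1+2 (79.3 CPM). *Zbtb16* was at 0.297 to 2.33, 54.8 to 65.9, 2.13 to 14.5 and 157 to 187 CPM in Ctrl, stress, vehicle and CORT. *Acot5* had 0 counts in all Ctrl libraries and at most 5.10 CPM elsewhere. The most opposite genes were *Dnaja1* (r = -0.958), a co-chaperone, *Rassf10* (-0.951) and *Fam20c* (-0.949), a kinase of secreted proteins. *Dnaja1* was at 240.4 to 259 CPM in Ctrl, at 203 to 234 CPM in vehicle, at 165 to 215 CPM in stress and at 153 to 177 CPM in CORT.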

How the data were processed

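RNA of sorted ISCs was sequenced as paired reads in 12 libraries. Per the submitters' processing notes, reads were aligned to mm10 with HISAT2 2.2.1 and assembled with StringTie 2.2.1, whereas the methods of the study name featureCounts. The deposited estimated counts equal covered bases divided by 75, the default of StringTie's count script, and were rounded to whole numbers. From the authors there were also FPKM values, used for levels across genes, and each gene's mean coverage (a signal with no scaling to depth), which served to work out what a count is. By identifier, 47224 of the 47729 genes matched GENCODE M21.

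Groups were taken from the sample titles. Each pair was tested with edgeR 4.0.16 in R 4.3.3 (quasi-likelihood F-test, TMM, filterByExpr, Benjamini-Hochberg adjustment over all genes tested) on its 6 libraries, and the difference of the stress and CORT effects on 12 libraries. Genes were called at an adjusted p below 0.05. The standard error is the absolute log2 fold change divided by the square root of F. The tests were checked on simulated counts.

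The members and the lists were chosen with earlier results of these data known. The named genes are all members, every other listed gene called, and the 5 genes most and 3 least correlated with *Pdk4*. Alternatives were DESeq2 1.42.0, its size factors, other filters, 12 libraries in 1 fit, counts divided by 4, limma 3.58.1 on log2(FPKM + 1) or log2(FPKM + 0.1), and leaving out each library. Stress 3 alone against Ctrl was added after the values had been seen. Protein sequences were not analysed here.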

Additional observations from a re-analysis of the deposited data

How the results depend on the processing

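The log2 fold change of *Pdk4*, on which the members were selected, is a description under each setting too. It was between 3.81 and 6.02 in stress vs. Ctrl, between 3.44 and 4.40 in CORT vs. vehicle and between 1.35 and 2.87 in vehicle vs. Ctrl, where limma on log2(FPKM + 1) with no filter called 0 members and 0 of all genes. Over the members, 645 recomputed log2 fold changes stayed within 1 SE or kept their call, 14 moved by more than 1 SE without a call, 1 lost its call and 0 reversed. *Pdk4* was the only member with calls. The 645 include it wherever it kept its call, even where it moved by more than 1 SE, as at 3.81 in stress vs. Ctrl. Nothing is read from these calls.

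Counts of calls moved more, and the cause was not tested. In stress vs. Ctrl, 260 genes and 5 listed genes were called by edgeR, 552 and 9 by DESeq2, 46 and 1 with no filter on low counts, 510 genes with 12 libraries in 1 fit, 87, 80 and 27 genes by limma on log2(FPKM + 1), log2(FPKM + 0.1) and with no filter (1 listed gene each), and 90 and 1 with stress 3 alone. Leaving out a library gave 56 (without Ctrl 3) to 849 genes and 1 to 11 listed genes, both highest without stress 3. Without Ctrl 1, Ctrl 2, stress 1+2 and stress 4+5+6 the genes numbered 59, 70, 88 and 114.

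In CORT vs. vehicle, 1192 and 15 became 561 and 6 by limma with no filter, and 503 to 1003 and 8 to 12 without a library, lowest without CORT 4 (780 and 680 genes without CORT 2 and CORT 5). In vehicle vs. Ctrl, 109 and 1 became 289 and 2 by DESeq2, 33 and 0 and 28 and 0 by limma on log2(FPKM + 1) and log2(FPKM + 0.1), with 0 listed genes and no filter too, and 2 listed genes with 12 libraries in 1 fit. Without a library they were 20 (without Ctrl 1) to 169 (without vehicle 3) and 0 to 1. For the difference of both effects, 56 and 0 became 395 and 5 by DESeq2 and 25, 23 and 17 genes by the limma settings, and 12 to 241 and 0 to 4 without a library, highest without stress 3. The share of *Pdk4* among the kinases in vehicle was 4.09% from CPM.

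No paired analysis was possible because single libraries of the groups compared share at most 1 replicate number, and stress 1+2 names 1 and 2 together and so matches no single Ctrl library. The low counts of *Pdk4* in Ctrl limit the size of its fold, and 3 libraries a group limit what the other members can show.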

Other observations

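A pair of ratios was taken after the values had been seen, and they are given as values only. The share of *Ldha* in the summed FPKM of *Ldha* and *Pdha1*, the enzymes at the fork between lactate and acetyl-CoA, was 65.9 to 69.3% in Ctrl and 60.6 to 64.4% in stress, and 63.6 to 69.3% in vehicle and 59.0 to 64.2% in CORT. Ctrl and stress did not overlap, whereas CORT 2 lay above the lowest vehicle library. The summed FPKM of the 4 kinases over that of the 2 phosphatases was 8.27 to 14.4 in Ctrl and 13.5 to 15.02 in stress. It was 10.9 to 13.2 in vehicle and 14.8 to 28.9 in CORT, where all CORT libraries lay above vehicle. The kinase sum includes *Pdk4*, on which the members were selected in these same pairs, so nothing is read from this separation. Without *Pdk4* the kinases summed to 67.55 to 71.9 FPKM in vehicle and 62.6 to 67.47 FPKM in CORT.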
